A study of Homo sapiens with 6 samples.

Results

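The cytosolic nucleic acid sensing system was followed through 10 genes in NB4 cells, a long-established line of human acute promyelocytic leukemia, after exposure to maltonis, a synthetic hydroxypyrone derived from maltol. The 10 genes were taken by symbol: the RNA receptors DDX58, IFIH1 and DHX58 with their adaptor MAVS, the endosomal receptor TLR3, the double-stranded RNA kinase EIF2AK2 and the RNA-editing enzyme ADAR, the DNA-binding protein IFI16, the adaptor TMEM173 and the exonuclease TREX1. They are 10 of the 23368 gene symbols counted, and all 10 passed the filter on low counts that left 13209 genes to test. The groups were 3 libraries of NB4 cells not treated and 3 libraries of NB4 cells kept with 10 µM maltonis, all of them collected at 24 h and sequenced from ribosome-depleted total RNA. Both groups come from 1 cell line grown in the same medium, the untreated group carries no stated vehicle, and the labels do not say whether libraries of a group came from separate cultures, so p-values measure the spread between these libraries only.

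Cytosolic sensors tell foreign or misplaced nucleic acids from the RNA and DNA that a cell keeps in its proper places. RIG-I-like receptors bind double-stranded RNA in the cytosol and signal through MAVS on mitochondria, while the enzyme cGAS binds DNA and makes a cyclic dinucleotide that is sensed by STING, the product of TMEM173, on the endoplasmic reticulum. Both routes lead to kinases that activate transcription factors of interferon genes, and several of the sensors are themselves interferon-stimulated genes, while TREX1 and ADAR limit sensing of the cell's own DNA and RNA.

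Sequencing depth ranged from 18492154 to 38205483 counts per library. Levels are given as CPM, the counts scaled to a common library size, and the floor of detection of 3 counts lay at 0.0828 to 0.160 CPM on the same scale, a limit for counting error only. Replicate 1 of each group carries another code in the name of its deposited library than replicates 2 and 3, and the meaning of that code is not stated. Of 11 promyelocytic marker genes all had counts, with MPO, the myeloperoxidase gene, at 14612 ± 1491 CPM (SD, n = 3) in not treated cells, although ELANE, the neutrophil elastase gene, was at 0.129 ± 0.059 and KIT at 0.535 ± 0.131. Their summed level, most of it from MPO, was 14618 to 17097 CPM in not treated and 8950 to 9447 in treated libraries. MPO fell to 7425 ± 128 CPM, while ELANE rose to 17.4 ± 3.3, KIT to 3.22 ± 0.39 and CTSG from 109.3 ± 5.3 to 552.8 ± 19.9, so that the list held changes in both directions. Of 12 markers of other cells, MS4A1, CLEC4C and HBB were at 0 in all libraries and 8 lay under 1 CPM in not treated cells, with a summed level of 66.5 to 71.3 in not treated and 56.0 to 62.8 in treated libraries, mostly from NKG7, EPCAM and PECAM1. In bulk RNA, fewer cells of a type and less RNA per cell cannot be told apart, and the part of these marker shifts in the results below was not tested.

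Promoter sequences from RefSeq were at hand for 8 of the 10 genes. Stretches are shown of 4 genes that hold, wholly or nearly, the repeated GAAA of the interferon-stimulated response element. IFI16, whose windows also hold matches that differ at 1 base, is not shown. The letters searched were GAAANNGAAA on both strands, where N is any base, and overlapping matches were counted separately. In IFIH1, capitals mark exact matches, of which 3 lie in the 250 bases before the start, the outermost beginning 159 and the innermost 21 bases before it. In DDX58, whose 250 bases hold no exact match, capitals mark 4 matches that differ from the letters at 1 base, 3 of which overlap. In EIF2AK2 and TLR3 the exact match crosses the start itself, beginning 6 and 4 bases before it, and 30 bases around the start are shown.
IFIH1 (GRCh38.p14, chr2:162318685-162318934, minus strand): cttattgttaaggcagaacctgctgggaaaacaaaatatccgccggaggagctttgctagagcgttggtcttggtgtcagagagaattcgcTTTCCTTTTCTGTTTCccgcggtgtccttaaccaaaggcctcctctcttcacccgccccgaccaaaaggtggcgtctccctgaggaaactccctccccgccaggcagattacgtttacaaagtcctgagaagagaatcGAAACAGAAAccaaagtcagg
DDX58 (GRCh38.p14, chr9:32526197-32526446, minus strand): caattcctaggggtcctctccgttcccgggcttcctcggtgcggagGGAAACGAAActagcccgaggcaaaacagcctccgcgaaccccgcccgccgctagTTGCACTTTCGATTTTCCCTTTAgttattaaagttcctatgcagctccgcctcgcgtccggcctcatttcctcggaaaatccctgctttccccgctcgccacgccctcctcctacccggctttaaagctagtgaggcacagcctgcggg
EIF2AK2 (GRCh38.p14, chr2:37156971-37157000, minus strand): gcggagtccaagggGAAAACGAAActgaga
TLR3 (GRCh38.p14, chr4:186069136-186069165, plus strand): ttttttcaagctttacTTTCACTTTCgaga

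In the 250 bases before the start, 1 of the 8 genes, IFIH1, held the exact letters, as did 1014 of 27305 genes in all (3.71%), a gene being counted if any of its starts held a match. With 1 mismatch allowed, 4 of 8 held a match (DDX58, IFIH1, TLR3 and IFI16), beside 33.8% of all genes. When the window ran on to 50 bases after the start, a choice made after seeing the data, 3 of 8 held the exact letters (IFIH1, TLR3 and EIF2AK2), beside 4.38% of all genes. The exact letters followed by CT were found upstream in none of the 8 and in 0.271% of all genes, and in the longer window in EIF2AK2 and 0.322% of all genes. The upstream windows of MAVS, ADAR and TREX1 held no match under any of these settings, which says only that these letters are not in these windows.

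After 24 h with maltonis, the RNA of 7 of the 10 genes was higher, that of TMEM173 was lower, and 2 genes, ADAR and IFI16, did not pass the test (false discovery rate, FDR, under 0.01 in the quasi-likelihood test of edgeR, Benjamini-Hochberg adjusted over 13209 genes). Much of the transcriptome differed between the groups, and 31.9% of all tested genes were called higher and 32.1% lower, against 7 and 1 of these 10. With a change beyond 2.5-fold required as well, 5 of the 10 were higher (DHX58, DDX58, TREX1, TLR3 and IFIH1) beside 9.95% of all genes, and TMEM173 was lower beside 10.4% of all genes. TLR3 is among the 7 and the 5, but its not treated libraries alone would not have passed the filter on low counts. Its call therefore adds no separate support to these counts. The 3 treated libraries lay wholly above the 3 not treated libraries for 8 genes, wholly below them for TMEM173 and overlapped for ADAR, where 38.8% of all tested genes were wholly higher and 37.8% wholly lower. The median log2 fold change of the 10 genes was 1.31, beside 0.01 for all genes tested.

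**Figure D1:**
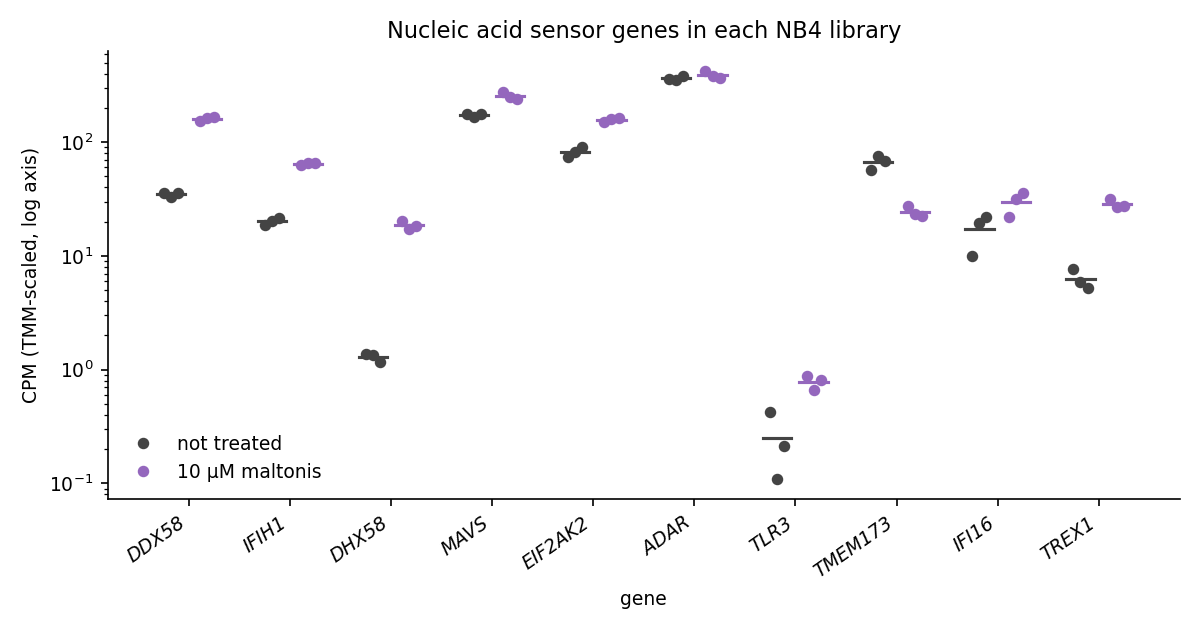
CPM (scaled by the trimmed mean of M-values, log axis) of the 10 genes in each library, with 3 not treated (grey) and 3 maltonis-treated (purple) NB4 libraries and bars at group means. The treated points lie above the not treated ones for 8 genes, below them for TMEM173 and among them for ADAR, and DHX58 has the widest gap, from a mean of 1.30 to 18.5.

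The 3 RIG-I-like receptors rose together, each by a different amount. DDX58 encodes RIG-I, which recognises short double-stranded RNA and RNA ends that carry triphosphates. It stood at 36.0, 32.7 and 35.7 CPM in not treated cells and at 153.6, 162.2 and 166.5 after maltonis. The groups lay far apart and the libraries within each were close, with means that differ 4.62-fold and a log2 fold change of 2.21 ± 0.07 (SE, FDR 4.13e-08 in edgeR's quasi-likelihood test). IFIH1 encodes MDA5, the receptor for long double-stranded RNA. Its libraries held 18.8, 20.2 and 21.5 CPM without and 62.4, 65.5 and 66.1 with maltonis. The rise was 3.21-fold, a log2 fold change of 1.68 ± 0.07 (FDR 2.09e-07), and again no library of one group reached the other.

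DHX58 encodes LGP2, a relative that binds RNA but lacks the signalling domains of the other RIG-I-like receptors and tunes their activity. It was low in not treated cells, with 26, 49 and 39 counts, or 1.39, 1.35 and 1.18 CPM, and reached 20.1, 17.2 and 18.2 after maltonis. With means that differ 14.2-fold and a log2 fold change of 3.83 ± 0.12 (FDR 5.40e-08), it had the largest increase among the 10 genes and ranked 133 from the top of the 13209 tested genes. DDX58 ranked 541 and IFIH1 905. The 3 rose unequally, so that their proportions per length were not kept. The ratio of DHX58 to IFIH1 in RPKM, the CPM per kilobase of exon, went from 0.0866 ± 0.0127 (SD, n = 3) to 0.382 ± 0.042, and that of IFIH1 to DDX58 from 0.495 ± 0.043 to 0.343 ± 0.004. In both ratios the 3 libraries of one group lay wholly apart from those of the other.

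MAVS, the mitochondrial adaptor on which RIG-I and MDA5 converge, rose as well, with a smaller fold change. Its libraries lay at 177.4, 165.5 and 177.0 CPM without and 275.4, 247.4 and 241.6 with maltonis. All 3 treated libraries were above the not treated ones, by 1.47-fold on average (log2 fold change 0.56 ± 0.07, FDR 8.16e-05). The RPKM ratio of the adaptor to DDX58 fell from 1.84 ± 0.02 to 0.588 ± 0.067, so that MAVS RNA exceeded DDX58 RNA per length before maltonis and lay under it afterwards.

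TLR3, the receptor for double-stranded RNA in endosomes, was barely expressed in these cells. It had 8, 4 and 7 counts in not treated libraries and 17, 22 and 23 in treated ones, or 0.426, 0.110 and 0.211 against 0.878, 0.656 and 0.817 CPM. The filter on low counts let TLR3 into the test through the treated libraries, the group where it was high. Every treated library was higher, and the pooled counts of 19 and 62 give a ratio of 3.55 with an exact 95% interval of 2.09 to 6.29 that covers counting error only. Its log2 fold change of 1.80 ± 0.40 (FDR 0.00314) did not pass the threshold when not treated replicate 2 or 3 or maltonis replicate 1 or 3 was left out, with an FDR of 0.0148, 0.0129, 0.0129 and 0.0147. Between the libraries with the first code the log2 difference was 1.04 and between those with the second code 2.26.

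EIF2AK2 and ADAR both act on double-stranded RNA, and EIF2AK2 rose while ADAR was not called. EIF2AK2 encodes PKR, a kinase that binds double-stranded RNA and then phosphorylates the translation factor eIF2. It stood at 73.4, 81.4 and 90.8 CPM in not treated cells and at 149.3, 158.5 and 162.6 after maltonis. The groups did not overlap and the means differed 1.92-fold (log2 fold change 0.94 ± 0.08, FDR 1.15e-05). ADAR encodes the enzyme that turns adenosines of double-stranded RNA into inosines, which makes the cell's own RNA less visible to MDA5 and PKR. Its libraries lay at 357.6, 354.9 and 382.0 without and 421.2, 385.1 and 369.2 with maltonis. Here the lowest treated library lay under the highest not treated one, and the log2 fold change of 0.10 had a 95% interval of -0.05 to 0.26 (FDR 0.192). RefSeq gives ADAR 3 starts, and counts per gene symbol pool their transcripts, so a shift between transcripts could not be seen. The RPKM ratio of ADAR to EIF2AK2 was 4.97 ± 0.39 without and 2.78 ± 0.31 with maltonis, with no overlap between the groups. EIF2AK2 shares 35 and 401 of its 10753 exon bases with a gene and a pseudogene on the opposite strand in GENCODE 29, and whether counting used the strand is not stated.

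On the DNA side TREX1 rose, TMEM173 fell and IFI16 was not called. TREX1 encodes the exonuclease that degrades DNA in the cytosol and thereby limits the activation of cGAS. Its libraries rose from 7.67, 5.91 and 5.25 CPM to 31.5, 26.8 and 27.3, wholly apart, by 4.55-fold (log2 fold change 2.21 ± 0.14, FDR 1.42e-06). All 1515 exon bases of TREX1 are also annotated as exon of ATRIP, a DNA damage response gene on the same strand, so reads there could be shared out in ways the sources do not state. ATRIP, by its own symbol, held 759, 1470 and 1275 counts without and 965, 1560 and 1280 with maltonis, a log2 fold change of 0.25 ± 0.07 (FDR 0.00886), much smaller than that of TREX1.

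TMEM173 was the only gene of the 10 called lower. It stood at 57.4, 75.4 and 68.9 CPM in not treated cells and at 27.3, 23.1 and 22.2 after maltonis. All 3 treated libraries lay under the lowest not treated one, and the level after maltonis was 0.360 times that before (log2 fold change -1.48 ± 0.12, FDR 6.06e-06). The log2 difference was -1.07 between the libraries of the first code and -1.67 between those of the second, so the fall was seen in both. The RPKM ratio of TREX1 to TMEM173 rose from 0.244 ± 0.083 to between 2.93 and 3.12 in the 3 treated libraries. By these counts it went from an excess of the STING gene to an excess of the exonuclease gene. The level of TREX1 in this ratio depends on how reads shared with ATRIP were counted, which is not stated.

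IFI16 encodes a DNA-binding protein of the PYHIN family that acts with STING. Its libraries lay at 9.91, 19.6 and 21.8 CPM without and 21.95, 31.4 and 35.8 with maltonis. Replicate 1 was the lowest library of both groups, and the lowest treated library lay only just above the highest not treated one. The log2 fold change of 0.78 ± 0.27 did not pass the threshold (FDR 0.0268, 95% interval 0.17 to 1.40), while with the replicate number as a block it was 0.82 with an FDR of 1.84e-05, and between replicates of the second code alone it was 0.70 with an FDR of 5.24e-05. The difference was 1.15 between the libraries with the first code. Among the relatives of IFI16, MNDA, a nuclear protein of myeloid cells, rose from 185.8 ± 7.0 to 249.5 ± 10.9 CPM (log2 fold change 0.43 ± 0.06, FDR 0.000189). AIM2, an inflammasome DNA sensor, had 0, 1 and 1 counts in not treated and 5, 14 and 8 counts in treated libraries, too few to be tested. The pooled ratio was 14.7 with an exact 95% interval of 3.69 to 127.4 that covers counting error only. PYHIN1 had 7 to 12 counts without and 10 to 16 with maltonis and was not called (FDR 0.272).

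**Figure D2:**
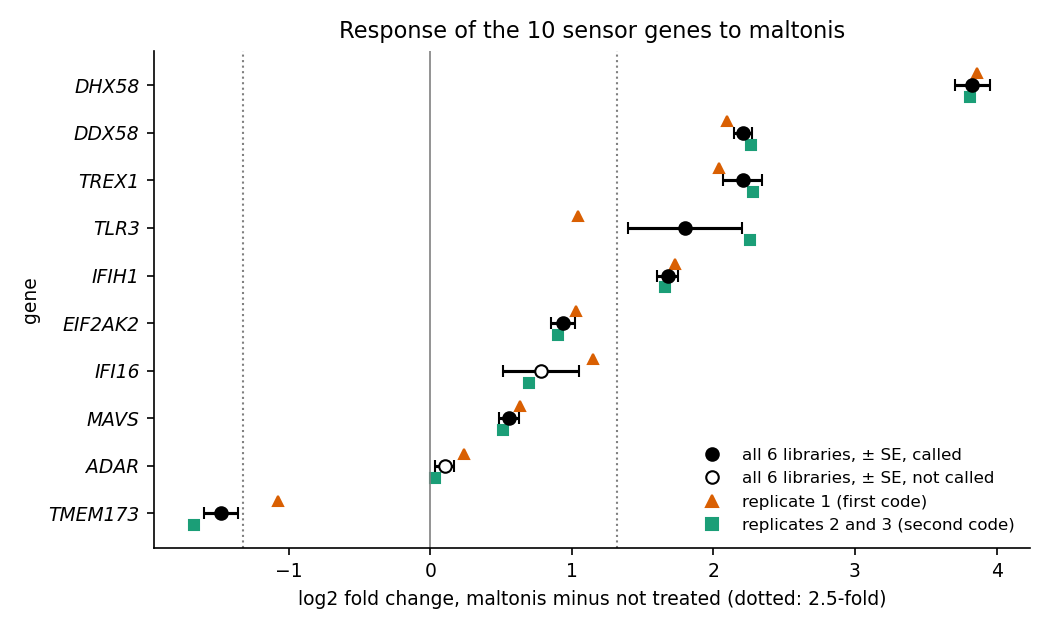
Log2 fold change (maltonis minus not treated) of the 10 genes over all 6 libraries with its SE (circles, filled where FDR was under 0.01), and the same difference within replicate 1 (triangles) and within replicates 2 and 3 (squares), with dotted lines at a 2.5-fold change. Both codes give the same sign for every gene. The codes lie close together for DHX58 (3.86 and 3.81) and far apart for TLR3 (1.04 and 2.26).

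With 3 libraries against 3, the exact two-sided permutation test of a single gene cannot go below 0.1. It gave that smallest value for the 9 genes whose groups did not overlap and 0.2 for ADAR. The calls above therefore rest on edgeR's quasi-likelihood test, which shares information on the spread across genes.

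Per length, ADAR was the most abundant of the 10 transcripts in both groups, with 37.6 ± 1.5 RPKM (SD, n = 3) in not treated and 40.4 ± 2.8 in treated cells. In not treated cells it was followed by TMEM173 (17.5 ± 2.4) and MAVS (14.7 ± 0.6), whose libraries overlapped, and by DDX58 (7.996 ± 0.41) and EIF2AK2 (7.61 ± 0.81), which overlapped as well. TREX1 (4.14 ± 0.83), IFIH1 (3.95 ± 0.26) and IFI16 (3.23 ± 1.19) came next, each overlapping its neighbour, and DHX58 (0.339 ± 0.029) and TLR3 (0.037 ± 0.024) stood apart at the bottom.

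After maltonis the order of the middle ranks was different. DDX58 moved up to 36.9 ± 1.5 RPKM, where its libraries overlapped those of ADAR, ahead of MAVS (21.6 ± 1.5) and TREX1 (18.8 ± 1.7), which overlapped each other. EIF2AK2 (14.6 ± 0.6) and IFIH1 (12.7 ± 0.4) were each apart from their neighbours. TMEM173, second in not treated cells, was now seventh at 6.29 ± 0.71, overlapping IFI16 (5.62 ± 1.34), which overlapped DHX58 (4.82 ± 0.39). TLR3 stayed last at 0.117 ± 0.017. These lengths are the summed exons of each gene in GENCODE 29, and with the longest transcript instead 6 of the 10 genes kept their rank in not treated cells. In treated cells the longest transcript put IFIH1 (mean 17.98 RPKM) above EIF2AK2 (15.62). It also put ADAR (55.1) further above DDX58 (36.9).

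**Figure D3:**
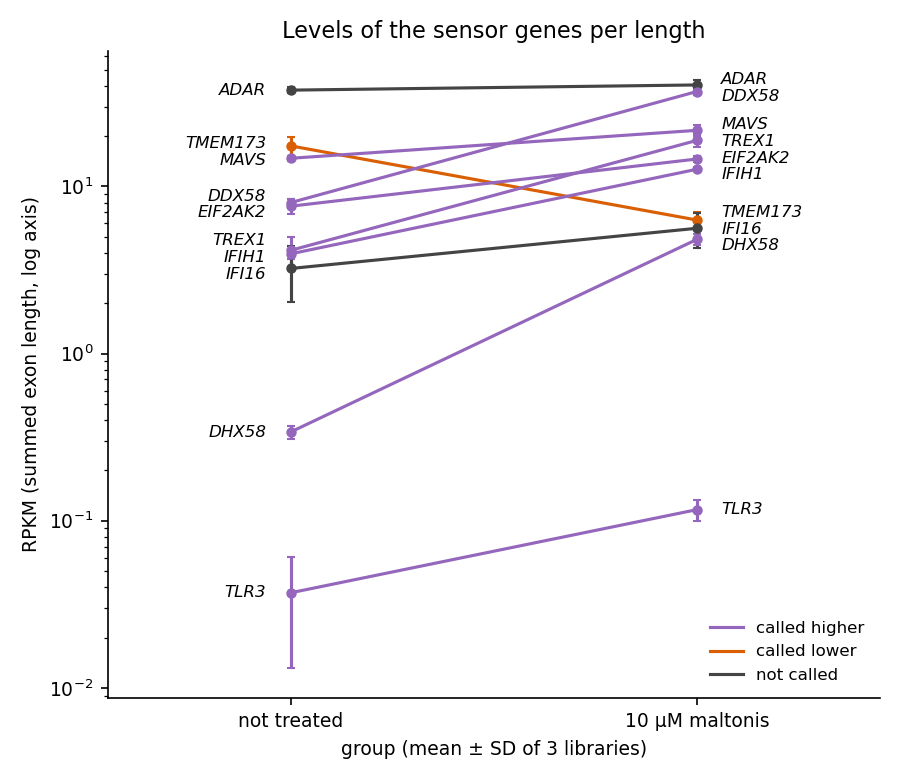
RPKM (log axis, mean ± SD of 3 libraries) of the 10 genes in not treated and maltonis-treated NB4 cells, with lines coloured by the call. DDX58 climbs from 7.996 to 36.9 and TREX1 from 4.14 to 18.8, while TMEM173 drops from 17.5 to 6.29 and ADAR stays first at 37.6 and 40.4.

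The rest of the pathway held genes called in both directions. So did the transcriptome, where 31.9% of all tested genes were called higher and 32.1% lower. The counts of every list below stand beside these shares, and no list was tested as a set. Values with ± are log2 fold changes with their SE unless CPM is named. Among 27 cofactors and modifiers of the RIG-I-like receptors, 8 were higher, 12 lower and 7 not called, with a median log2 fold change of -0.20, beside 4213 higher and 4239 lower of 13209 genes in all. The 4 that rose beyond 2.5-fold were DDX60 (log2 fold change 2.495 ± 0.14) and DDX60L (1.61 ± 0.07), helicases induced by interferon, ZC3HAV1 (1.93 ± 0.06), the zinc finger antiviral protein, and OASL (1.67 ± 0.14), which binds RIG-I. TRIM25, a ubiquitin ligase that activates RIG-I, rose by 1.04 ± 0.12 on the log2 scale, from 109.9 ± 20.1 to 226.5 ± 12.2 CPM. RNF135, another ligase of RIG-I, fell from 23.1 ± 1.8 to 9.83 ± 0.17 (log2 fold change -1.23 ± 0.09). The helicase gene DDX1 fell most, at -1.87 ± 0.07, and ZCCHC3, a co-sensor of the RIG-I-like receptors, had a log2 fold change of -1.19 ± 0.14.

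Downstream of MAVS, 13 of 28 adaptors, kinases and transcription factors were higher, 7 lower and 8 not called (median 0.25). Over all genes tested, 31.9% were higher and 32.1% lower. IFIT3, an interferon-induced protein that bridges MAVS and the kinase TBK1, rose from 7.45 to 92.4 CPM (log2 fold change 3.62 ± 0.08), and IRF7, a transcription factor of interferon genes, from 17.7 to 99.0 (2.496 ± 0.11). TBK1 itself rose by 0.60 ± 0.07. IRF3, which was picked out after its value was seen, rose by 0.53 ± 0.08. The largest falls were among the TRAF adaptors and a kinase. TRAF3, the adaptor that couples MAVS to TBK1, lay at 83.7 ± 6.32 CPM without and 13.98 ± 0.50 with maltonis (-2.58 ± 0.08), with no overlap. TRAF5 fell by 1.68 ± 0.12 and IKBKE, the gene of the TBK1-related kinase, by 1.38 ± 0.09 on the log2 scale, and TRAF6 had a log2 fold change of -0.99 ± 0.10.

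Of the 28 inhibitors of cytosolic sensing 27 were tested, and 11 were higher, 8 lower and 8 not called (median 0.02), with 13 higher and 6 lower after scaling by total counts. USP18, which removes ISG15 and blunts interferon signalling, rose by 1.51 ± 0.12, and TRIM38 (1.25 ± 0.09) and GPATCH3 (1.19 ± 0.07) followed. DAK, whose product binds MDA5, had the largest fall, at -2.47 ± 0.10, and TNFAIP3, the gene of the ubiquitin-editing enzyme A20, had a log2 fold change of -1.38 ± 0.10. RNF125, a ligase that marks RIG-I for degradation, had a log2 fold change of -1.20 ± 0.10, and MARCH5, a mitochondrial ligase that acts on MAVS, had a log2 fold change of -1.21 ± 0.09.

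Among the DNA sensors and partners of STING, 26 of 31 were tested, with 7 higher, 11 lower and 8 not called (median -0.09). MB21D1, the gene of cGAS, rose from 52.7 to 80.1 CPM (log2 fold change 0.61 ± 0.09, FDR 0.000341), while its partner TMEM173 fell. IFI35 rose most (2.87 ± 0.19), and TRIM56, a ubiquitin ligase of the pathway that is also in the list of RIG-I-like receptor modifiers, rose by 1.27 ± 0.09. CASP1, the inflammasome protease, rose by 0.90 ± 0.07, and PYCARD, its adaptor, had a log2 fold change of -1.49 ± 0.11. SLC19A1, a folate carrier that imports cyclic dinucleotides (-2.35 ± 0.12), and INSIG1, a membrane protein of the endoplasmic reticulum (-1.42 ± 0.06), also fell beyond 2.5-fold. ZBP1, a sensor of left-handed nucleic acid, and ZDHHC1 had 0 counts in all 6 libraries.

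Beside TREX1 and ADAR, 21 of 24 other nucleases and RNA-modifying enzymes were tested, with 7 higher, 6 lower and 8 not called (median 0.09), and 9 higher and 5 lower after scaling by total counts. SAMHD1, which hydrolyses deoxynucleotides and restricts viruses, rose from 90.5 to 296.5 CPM (log2 fold change 1.71 ± 0.05). RNASEH2C, a subunit of the ribonuclease that removes RNA from DNA hybrids, fell from 85.9 to 14.7 (-2.55 ± 0.09), and RNASEH2A, the catalytic subunit, had a log2 fold change of -0.63 ± 0.08. ADARB1, the other catalytically active ADAR gene, had a log2 fold change of -2.01 ± 0.08, whereas ADAR was not called, and ADARB2 and ADAD1 had 0 counts in all libraries.

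In the list around EIF2AK2 and its substrate eIF2, all 23 genes were tested, and 6 were higher, 10 lower and 7 not called (median -0.15), while scaling by total counts or by the upper quartile gave 9 higher and 8 lower, and the replicate block 9 and 10. The kinases EIF2AK1 and EIF2AK3, which phosphorylate the same factor in response to other stresses, rose by 0.41 ± 0.11 and 0.39 ± 0.07, and the related kinase EIF2AK4, named after its value was seen, fell (-0.35 ± 0.08). EIF2AK1 was not called without not treated replicate 2 or any 1 of the maltonis replicates (FDR 0.0199 to 0.0565). EIF2AK4 was not called with either of those scalings (FDR 0.0234 and 0.0153) or without any 1 library other than not treated replicate 1 (0.0108 to 0.0179). DDIT3, a transcription factor of the integrated stress response, rose by 1.50 ± 0.07, and PPP1R15A, the phosphatase subunit that reverses eIF2 phosphorylation, by 0.68 ± 0.08. ATF4, the transcription factor upstream of both, had a log2 fold change of -0.49 ± 0.07. TARBP2, an inhibitor of PKR, had a log2 fold change of -1.06 ± 0.09, SPRED2 had a log2 fold change of -1.65 ± 0.10, and EIF2B3, a subunit of the exchange factor that phosphorylated eIF2 blocks, had a log2 fold change of -2.42 ± 0.07.

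Of the endosomal receptors beside TLR3, TLR7 had 0 counts in all libraries, and TLR9 lay at 2.03 CPM without and 1.39 with maltonis and was not called (FDR 0.0208), though it was without maltonis replicate 1 (0.00519). Of the 20 genes of this list 16 were tested, with 5 higher, 3 lower and 8 not called (median -0.02). CTSL1, a protease that processes endosomal receptors, rose by 1.63 ± 0.08 and TIRAP, an adaptor, by 1.56 ± 0.16. TICAM1, the adaptor through which TLR3 signals, lay at only 0.795 and 0.407 CPM and fell (-0.96 ± 0.22, FDR 0.00424). It was not called with the replicate block (FDR 0.0126), with DESeq2 (0.0463) or without any 1 library other than maltonis replicate 1 (0.0114 to 0.0170). HSP90B1, the chaperone of toll-like receptors, had a log2 fold change of -1.27 ± 0.07.

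Of 21 interferon genes, 12 had no count in any library, and only IFNB1 had enough counts to be tested. IFNB1, which encodes interferon beta, had 3 counts in each of the 3 not treated libraries, which is the floor, and 19, 17 and 14 counts in the treated ones. All treated libraries were higher, with an FDR of 0.00102 in edgeR's quasi-likelihood test. The pooled counts of 9 and 50 give a ratio of 6.04 with an exact 95% interval of 2.94 to 13.98 that covers counting error only. IFNB1 passed the filter on low counts only through its treated libraries, the group where it was high. Its call as the 1 tested interferon gene therefore adds no separate support. IFNG had 0 counts in all libraries, which allows up to 0.160 CPM in not treated replicate 1, the library with the highest floor.

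**Figure D4:**
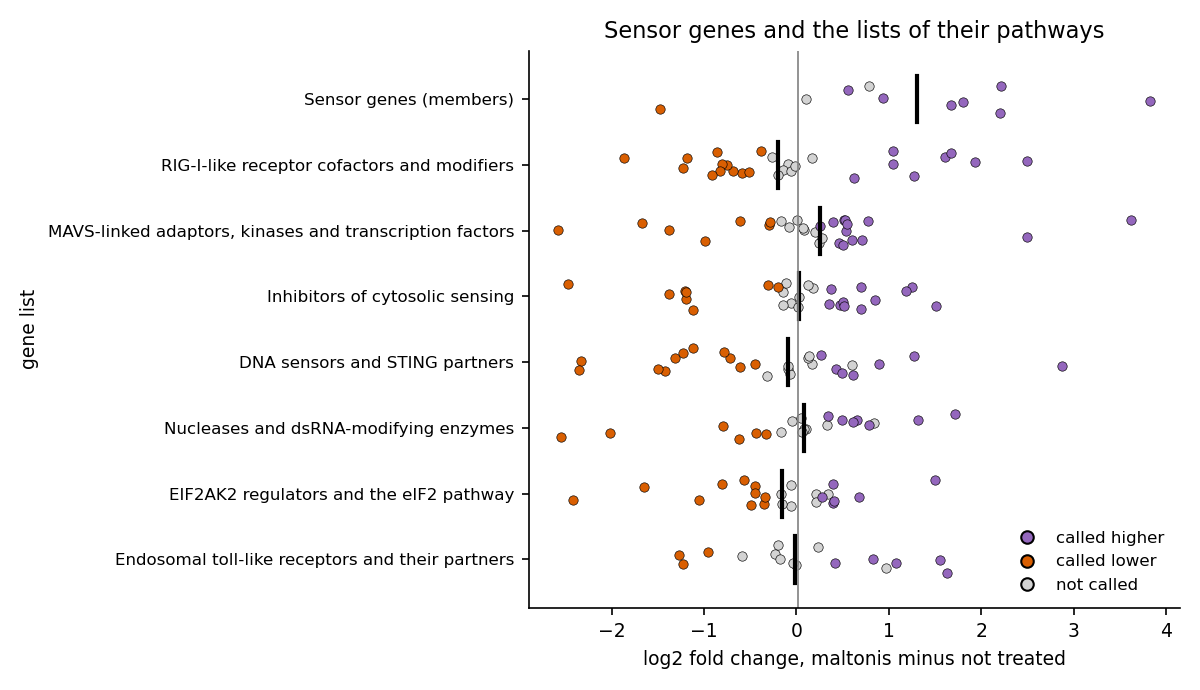
Log2 fold change (maltonis minus not treated) of each tested gene among the 10 sensor genes and 7 lists of their pathways, coloured by the call, with a black bar at each median and a grey line at the median of all genes (0.01). The sensor genes lie mostly to the right (median 1.31), while the medians of the lists lie between -0.20 and 0.25 with genes far out on both sides.

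The 5 tested genes whose levels over the 6 libraries were most like the mean profile of DDX58, IFIH1 and DHX58 were THAP9, HERC5, BTN2A2, ARRDC3 and KLC4. Likeness is the Euclidean distance between log2 levels centred on each gene's mean. Before the logarithm, each CPM was raised by the constant given below for the replicate correlations. That constant shrinks the change of a gene at a low level, such as DHX58 at 1.30 CPM in not treated cells. The mean profile matched here is therefore flatter than the mean of the log2 fold changes of these receptors. The distance ran from 0.0728 for THAP9 to 0.123 for KLC4. HERC5, the ligase that attaches ISG15 to proteins, was the most abundant of them, at 39.2 CPM without and 196.2 with maltonis (log2 fold change 2.32 ± 0.06). The other 4 rose by 2.30 to 2.48 on the log2 scale.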

How the data were processed

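The 10 genes, the lists and the tests were chosen with earlier results of these data known. The authors deposited 1 table of whole-number counts of reads per gene symbol for each library, without normalization. The submitters' processing notes name TopHat, Bowtie2, HTSeq and the build hg19, while the annotation, the counting mode and the strand setting are not given in the sources used here. The paper describes the libraries as biological triplicates. Replicates of a group differed by more than sampling noise (chi-square per degree of freedom 4.15 to 33.1), so each library counted as 1 sample.

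The tests used edgeR 4.0.16 in R 4.3.3 (filterByExpr, trimmed mean of M-values, the quasi-likelihood test over the 6 libraries with no covariate, Benjamini-Hochberg adjustment), and all FDR values come from it unless another test is named. A gene was called at an FDR under 0.01, with a log2 fold change beyond 1.32 (2.5-fold) as a second rule. The test was first checked on simulated data, and the outcome of that check is not reported here. Replicate numbers come from the labels, and deviations of same-numbered libraries from their group means (log2(CPM + 1)) correlated at 0.458, 0.170 and 0.248, so they were also used as a block. Between libraries of the second code with different numbers the correlations were 0.286 and 0.250. RPKM used exon lengths of GENCODE 29, and promoters came from RefSeq (GRCh38.p14), while the counts use hg19, so that coordinates are given for the promoters only. Named genes are the 10 genes, from each list those called beyond 2.5-fold with up to 4 others from either end or with 0 counts in all libraries, genes overlapping the 10, relatives of IFI16 and the 5 closest profiles. Some genes that this rule takes are not reported here. Alternatives covered scaling, test (DESeq2 1.42.0, likelihood ratio), filter, threshold, block, code and each library left out. Python 3.11.15 drew the figures.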

Additional observations from a re-analysis of the deposited data

How the results depend on the processing

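The counts of sensor genes called higher stayed between 6 and 8, those beyond 2.5-fold between 4 and 5, and TMEM173 was the 1 gene called lower in all 17 alternatives. The replicate block changed no other call among the 10 genes than that of IFI16. IFI16 also passed with DESeq2 (FDR 0.00670), the likelihood ratio test (0.00776), the code as a term (1.70e-05) and an FDR threshold of 0.05. TLR3 fell out of the test with a filter of over 1 CPM in at least 3 libraries, which also left 0 interferon genes called higher. With an FDR under 0.05, 5 genes of the endosomal list were called lower.

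Scaling by total counts moved the median log2 fold change of all genes from 0.01 to 0.13, and by the upper quartile to 0.10. In the order cofactors of RIG-I-like receptors, MAVS-linked, inhibitors, DNA sensors, nucleases, eIF2 and endosomal, the list medians were then -0.081, 0.37, 0.14, 0.026, 0.21, -0.032 and 0.098 with total counts. With the upper quartile they were -0.11, 0.34, 0.11, -0.0055, 0.17 and 0.066 for all but eIF2, where the median moved by less than the spread between replicates. Replicates of the second code alone gave -0.32 for the cofactors. Without 1 library at a time the medians ranged from -0.41 to -0.16 for the cofactors, 0.19 to 0.26 for the MAVS-linked, -0.055 to 0.13 for the inhibitors, 0.030 to 0.12 for the nucleases, -0.20 to -0.089 for eIF2 and -0.041 to 0.14 for the endosomal list. The order of levels in not treated cells kept 6 of 10 ranks with the longest transcript, and matches to the promoter letters were found in 0, 4, 3 and 1 genes under the other definitions. Depth limits TLR3, AIM2 and the interferon genes, which lie near the floor.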
